A study of Mus musculus with 18 samples.

Results

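Kainate receptors are glutamate-gated channels built from the subunits of 5 genes, Grik1 to Grik5, and their gating is shaped by the auxiliary proteins of Neto1 and Neto2. These 7 genes were followed in the lateral septum (LS), a forebrain region of mostly GABA-releasing neurons that is linked to maternal care and offspring protection, across virgin, lactating maternal and pups removed mice. A member was any target (probeset) of the array that is annotated to one of the 7 symbols and to no other gene, and the brightest such target by the mean of 18 arrays was to stand for each gene. Each of the 7 genes had exactly 1 such target, so 7 of the 35557 targets on the array were examined. They are Grik1 (10440621), Grik2 (10368999), Grik3 (10508052), Grik4 (10592629), Grik5 (10560945), Neto1 (10457091) and Neto2 (10580382).

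All 3 groups were nulliparous outbred hsd:ICR females at the start, about 70 days old, with 6 mice in each group and 1 Affymetrix Mouse Gene 1.0 ST array per mouse. Virgin mice had lived with other females and were taken in diestrus, while the other groups were mated with a breeder male, and all females were later housed alone. Lactating maternal mice nursed litters culled to 11 pups until the dissection on postpartum Day 7. Pups removed mice also gave birth but lost their litter on postpartum Day 2, and they too were dissected on Day 7, in diestrus. No group carried a transgene, and mice of all groups were lightly anesthetized with isoflurane at collection. The tissue was punched from both sides of the LS, so each value is an average over all cells of the punch, and fewer cells of a type and less RNA per cell cannot be told apart in it.

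Kainate receptors are tetramers. The proteins of Grik1, Grik2 and Grik3 (GluK1, GluK2 and GluK3) can form working channels alone, whereas those of Grik4 and Grik5 (GluK4 and GluK5) bind agonist with high affinity but need a partner from the first set to conduct. Neto1 and Neto2 are single-pass membrane proteins with CUB domains that bind the receptor and alter its desensitization. The receptors pass a postsynaptic current with slow decay and also act at presynaptic terminals, where they adjust the release of glutamate and GABA.

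The deposited values are log2 signals, so a difference of 1 is a doubling. Medians of the 18 arrays lay between 7.61 and 7.70, pairs of arrays correlated at 0.988 to 0.995, and every value of the 7 genes, from 8.24 upward, was above the highest array median. Over the 18 arrays the 12 LS neuron markers had medians from 6.51 (Dach2) to 12.02 (Zic1), and the GABA synthesis gene Gad2 was at 12.26. The 20 measured markers of striatal medium spiny neurons had medians from 8.11 (Pdyn) to 12.68 (Penk), and the choroid plexus gene Ttr ran from 8.34 to 13.83. Signals of different probesets cannot be set against each other, so these values do not give the share of any cell type. A limma model with 3 groups was used at the study's threshold, a Benjamini-Hochberg adjusted p under 0.25 with every target in the adjustment, and 585 targets (1.65%) were called between maternal and virgin LS. Between maternal and pups removed LS 11 (0.0309%) were called, and between pups removed and virgin LS 74 (0.208%). Every comparison uses groups that another one also uses, so the 3 sets of differences below are not independent of each other.

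Of the 7 genes, 1 rose in maternal LS relative to virgin and none fell, and that gene was Grik1. Its maternal signal was 1.19-fold the virgin signal. Among all targets, 0.832% were called higher and 0.813% lower in the same comparison. The other 6 genes had differences between -0.12 and -0.01 on the log2 scale and did not pass the test. No gene passed between maternal and pups removed LS, where 0.0225% of all targets were called higher and 0.00844% lower, and Grik1 again had the largest difference of the 7. No gene passed between pups removed and virgin LS, where 0.188% of all targets were called higher and 0.0197% lower.

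**Figure D1:**
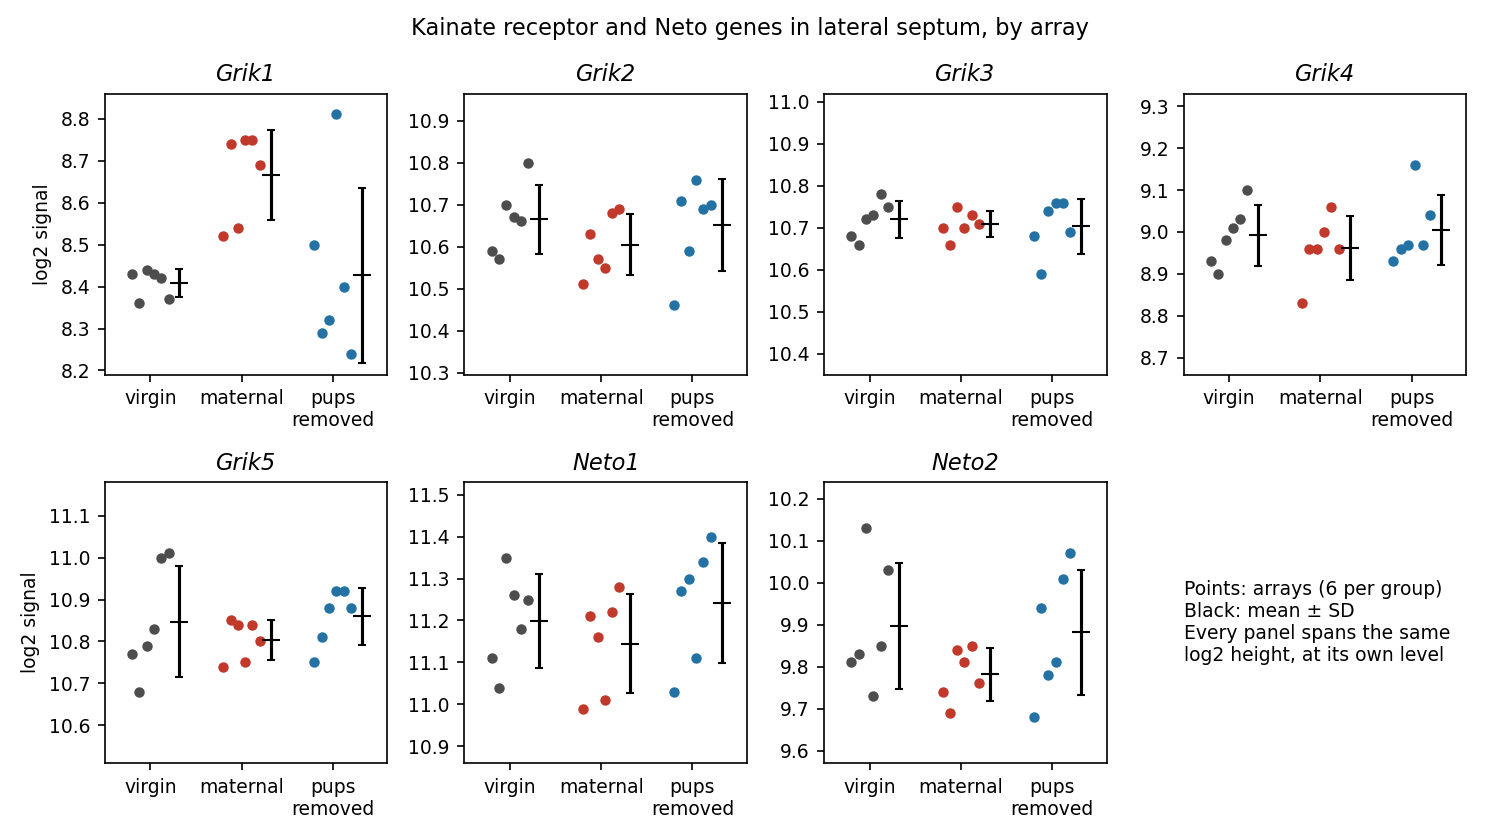
Log2 signal (y axis) of each gene in the 6 virgin, 6 maternal and 6 pups removed arrays (x axis), with 1 point per array and the mean ± SD in black; all panels span the same height on the log2 scale. Grik1 is the gene whose maternal points, from 8.52 to 8.75, all lie above the virgin points, which end at 8.44.

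Grik1 encodes GluK1, a subunit best known in rodent forebrain from GABAergic interneurons. In virgin LS its log2 signal was 8.43, 8.36, 8.44, 8.43, 8.42 and 8.37 in replicates 1 to 6. In maternal LS it was 8.52, 8.74, 8.54, 8.75, 8.75 and 8.69. All 6 maternal arrays were above the highest virgin array, a separation that 0.835% of all targets showed, in either direction, in this comparison. None of the 7 genes separated maternal from pups removed LS or pups removed from virgin LS in this way, as 0.529% and 0.38% of all targets did. The maternal mean of 8.67 ± 0.107 (SD, n = 6) exceeded the virgin mean of 8.41 ± 0.034 (SD, n = 6) by 0.26 on the log2 scale (SE 0.08, 95% interval 0.10 to 0.42). The limma adjusted p was 0.238, just inside the threshold, and the target stood at rank 510 by p among all targets. The paper's own fit called more targets at that threshold. It ranked Grik1 higher, as an increase among its most significant genes for maternal against virgin LS. The reason for this difference between the fits was not tested. An exact two-sided permutation test over the 924 splits of 6 and 6 arrays gave p = 0.0022, the smallest it can give.

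In pups removed LS the Grik1 signal was 8.50, 8.29, 8.32, 8.81, 8.40 and 8.24, with a mean of 8.43 ± 0.209 (SD, n = 6). Replicate 4, at 8.81, was higher than every maternal array, and the remaining 5 were at 8.50 or less, below the lowest maternal array. The maternal mean was 0.24 higher than that of pups removed mice (SE 0.08, 95% interval 0.08 to 0.40). All 6 maternal arrays were above the pups removed mean, but the call was missed (limma adjusted p = 0.395, unadjusted p = 0.0058; exact permutation test p = 0.0433). Without pups removed replicate 4 the difference was 0.32 and the limma adjusted p was 0.10, below the threshold. Pups removed and virgin means differed by 0.02 (95% interval -0.14 to 0.18, limma adjusted p = 0.972), with 2 pups removed arrays above the whole virgin range and 3 below it. The order of the group means was thus maternal, pups removed and virgin, and the last 2 did not differ beyond the spread between mice.

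The Grik1 call sat close to the threshold, as the plot of its adjusted p under each setting shows. The difference between maternal and virgin LS was between 0.24 and 0.29 under all 28 alternative settings, and the limma adjusted p ran from 0.0902 to 0.427. Many of these settings, such as a stricter threshold, permutation, filters on targets or leaving out a pups removed array, cannot change that difference. As maternal and virgin arrays did not overlap, leaving out 1 array could not reverse its sign. The call was lost when virgin replicate 2, 3, 4 or 5, maternal replicate 2, 4, 5 or 6, or pups removed replicate 1, 2 or 5 was left out, with limma adjusted p between 0.255 and 0.427, and it held in the other 7 of 18 such fits.

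**Figure D2:**
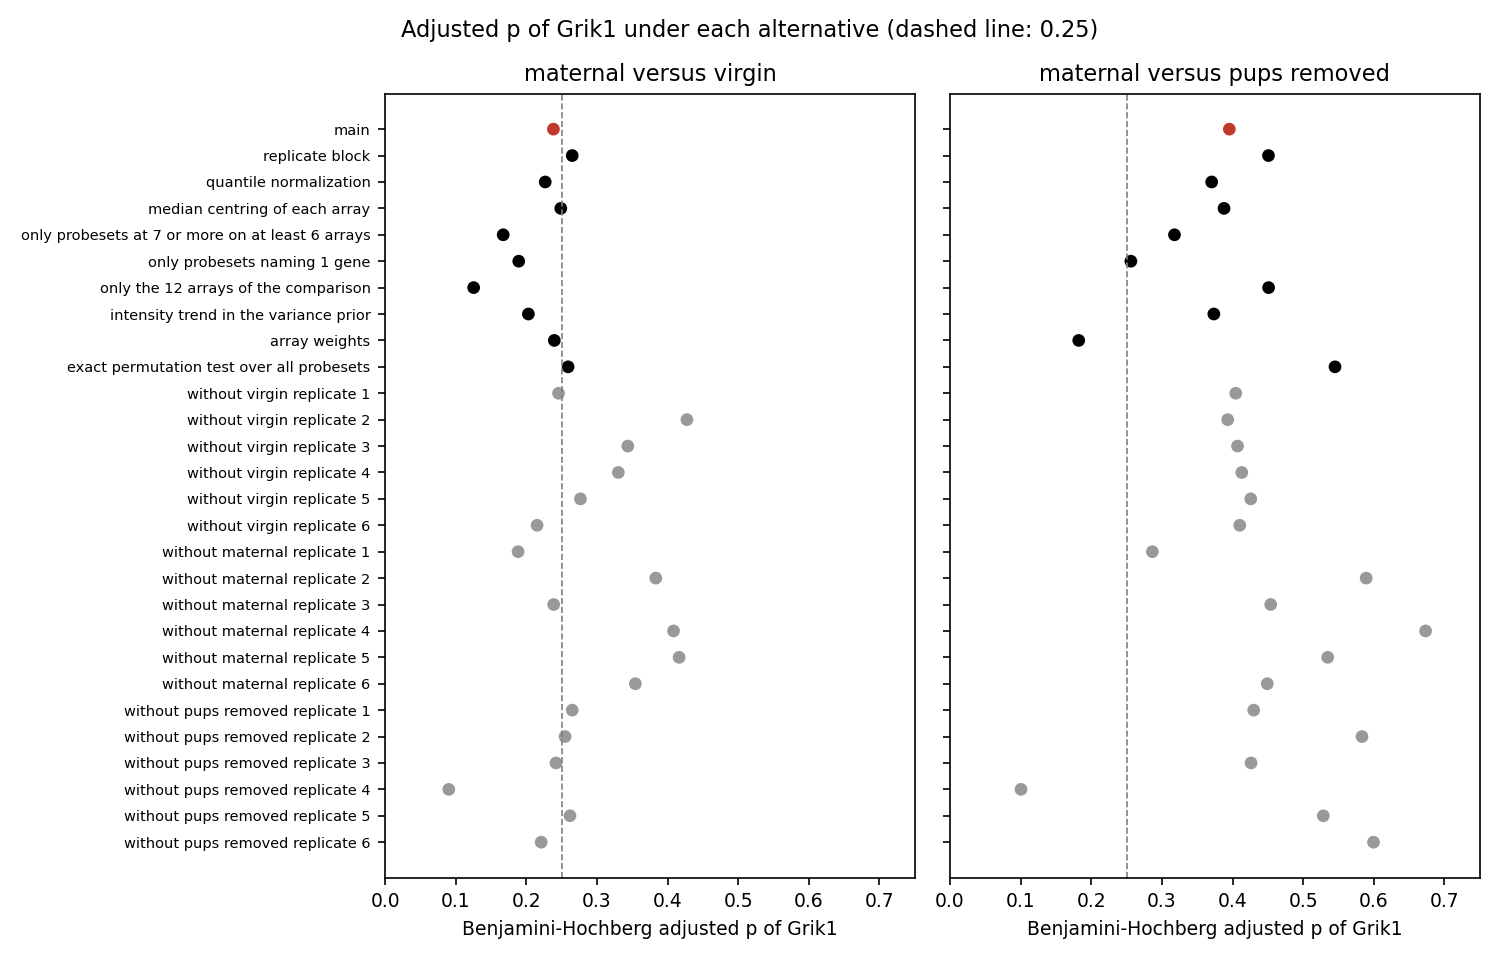
Benjamini-Hochberg adjusted p of Grik1 (x axis) under each setting or with a single array left out (y axis), for maternal versus virgin and for maternal versus pups removed; the red point is the reported fit, the other black points are other settings, the grey points are fits without the named array, and the dashed line marks 0.25. Points of the first panel lie on both sides of the line, from 0.0902 to 0.427, and in the second panel only array weights (0.182) and the fit without pups removed replicate 4 (0.10) fall below it.

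Grik2 and Grik3 encode the other subunits that form channels alone, and neither passed the test in any comparison. GluK2 is the widely expressed principal subunit of forebrain kainate receptors. Grik2 was at 10.59, 10.57, 10.70, 10.67, 10.66 and 10.80 in virgin, 10.51, 10.63, 10.57, 10.55, 10.68 and 10.69 in maternal, and 10.46, 10.71, 10.59, 10.76, 10.69 and 10.70 in pups removed LS. The 3 ranges overlapped. Maternal LS differed from virgin by -0.06 (95% interval -0.17 to 0.05, limma adjusted p = 0.732) and from pups removed by -0.05 (95% interval -0.16 to 0.06, limma adjusted p = 0.831). Pups removed and virgin differed by -0.01 (95% interval -0.12 to 0.10).

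GluK3 has a low sensitivity to glutamate. Its gene, Grik3, varied least of the 7, with a range of 0.19 over the 18 arrays and an SD within groups of 0.0489. Its signal was 10.68, 10.66, 10.72, 10.73, 10.78 and 10.75 in virgin, 10.70, 10.66, 10.75, 10.70, 10.73 and 10.71 in maternal, and 10.68, 10.59, 10.74, 10.76, 10.76 and 10.69 in pups removed LS. The groups lay on top of each other. The difference between maternal and virgin LS was -0.01 (95% interval -0.08 to 0.06, limma adjusted p = 0.936), so a change of the size seen for Grik1 lies outside its interval. Against pups removed LS the maternal difference of 0.01 had an interval of -0.07 to 0.08, and pups removed differed from virgin by -0.02 (-0.09 to 0.05).

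Grik4 and Grik5, the genes of the high-affinity subunits, did not pass the test either. Grik4 was at 8.93, 8.90, 8.98, 9.01, 9.03 and 9.10 in virgin, 8.83, 8.96, 8.96, 9, 9.06 and 8.96 in maternal, and 8.93, 8.96, 8.97, 9.16, 8.97 and 9.04 in pups removed LS. Its highest array was pups removed replicate 4, the same mouse that had the highest Grik1 signal. The maternal difference was -0.03 from virgin (95% interval -0.13 to 0.07, limma adjusted p = 0.868) and -0.04 from pups removed (95% interval -0.14 to 0.05, limma adjusted p = 0.821). Pups removed differed from virgin by 0.01 (95% interval -0.08 to 0.11).

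GluK5 is the high-affinity subunit that GluK2 is most often paired with. In virgin LS its gene Grik5 was at 10.77, 10.68, 10.79, 10.83, 11.00 and 11.01, in maternal LS at 10.74, 10.85, 10.84, 10.75, 10.84 and 10.80, and in pups removed LS at 10.75, 10.81, 10.88, 10.92, 10.92 and 10.88. Virgin replicates 5 and 6 were the highest of all 18 arrays, and the maternal range lay inside the virgin one. The difference was -0.04 from virgin (95% interval -0.15 to 0.07, limma adjusted p = 0.823). From pups removed it was -0.06 (95% interval -0.17 to 0.05, limma adjusted p = 0.786), with 6 of 6 maternal arrays below the pups removed mean. Pups removed differed from virgin by 0.01 (95% interval -0.10 to 0.12).

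Neither auxiliary gene passed the test. Neto1 was at 11.11, 11.04, 11.35, 11.26, 11.18 and 11.25 in virgin, 10.99, 11.21, 11.16, 11.01, 11.22 and 11.28 in maternal, and 11.03, 11.27, 11.30, 11.11, 11.34 and 11.40 in pups removed LS. Each group spread over more than its distance from the others. Maternal LS differed from virgin by -0.05 (95% interval -0.20 to 0.09, limma adjusted p = 0.839) and from pups removed by -0.10 (95% interval -0.24 to 0.05, limma adjusted p = 0.715). For pups removed against virgin LS the difference was 0.04 (95% interval -0.10 to 0.19).

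Neto2, whose protein also binds the neuronal chloride exporter KCC2, had the largest uncalled difference between maternal and virgin LS. It was at 9.81, 9.83, 10.13, 9.73, 9.85 and 10.03 in virgin, 9.74, 9.69, 9.84, 9.81, 9.85 and 9.76 in maternal, and 9.68, 9.94, 9.78, 9.81, 10.01 and 10.07 in pups removed LS. The maternal arrays were the tightest group and none was above 9.85, while virgin and pups removed LS each had 2 arrays above 10. All 6 maternal arrays were below the virgin mean and below the pups removed mean, yet the ranges overlapped. The maternal difference was -0.12 from virgin (SE 0.07, 95% interval -0.27 to 0.04, limma adjusted p = 0.597) and -0.10 from pups removed (SE 0.07, 95% interval -0.25 to 0.05, limma adjusted p = 0.711). Pups removed and virgin LS differed by -0.02 (95% interval -0.17 to 0.14).

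**Figure D3:**
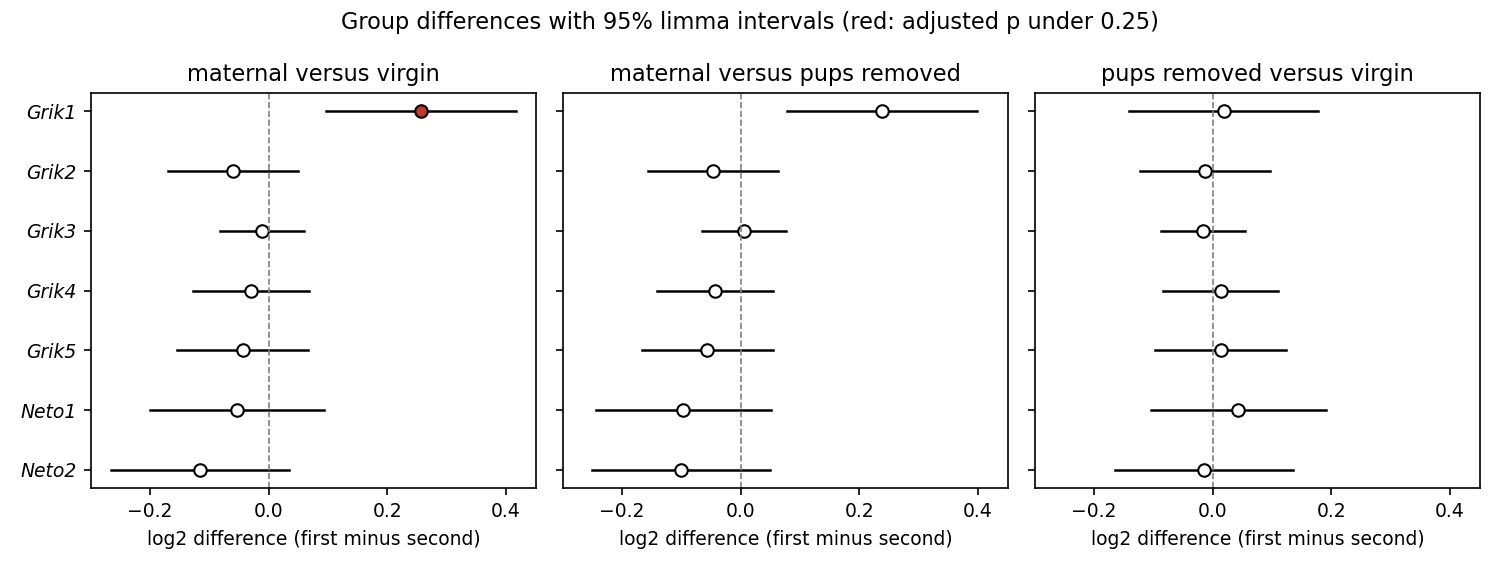
Difference in mean log2 signal (x axis) of each gene (y axis) in the 3 comparisons, first group minus second, with 95% limma intervals as lines; the filled red point is the called one. The interval of Grik1 lies above 0 in both maternal comparisons (0.10 to 0.42 and 0.08 to 0.40), and those of the other 6 genes cross 0 in all 3.

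Over the 7 genes together the median difference was -0.04 between maternal and virgin LS, -0.05 between maternal and pups removed LS and 0.01 between pups removed and virgin LS, against 0.01, -0.003 and 0.01 over all targets. At an unadjusted limma p under 0.05, 1 of the 7 passed in each maternal comparison, Grik1 both times, where 10.4% and 8.96% of all targets did, and 0 passed between pups removed and virgin LS, where 8.13% of all targets did. The exact permutation test of each gene gave the same counts at that level.

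The genes varied together to different degrees from mouse to mouse. After group means were subtracted, the 21 pairs of genes had Pearson r between -0.30 and 0.73 over the 18 arrays, with a median of 0.28, and 19 were positive. These are descriptions, since the genes of a pair share each array and its RNA. Grik2 and Grik4 had the highest value (0.73), followed by Grik4 and Grik5 (0.68), Grik3 and Grik5 (0.66), and Grik2 and Neto1 (0.66). The negative pairs were Grik1 with Neto1 (-0.29) and Grik1 with Neto2 (-0.30), while Grik1 and Grik4 were at 0.56. Pups removed replicate 4 was the highest array of both Grik1 (8.81) and Grik4 (9.16), and no pair value without it is given here.

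**Figure D4:**
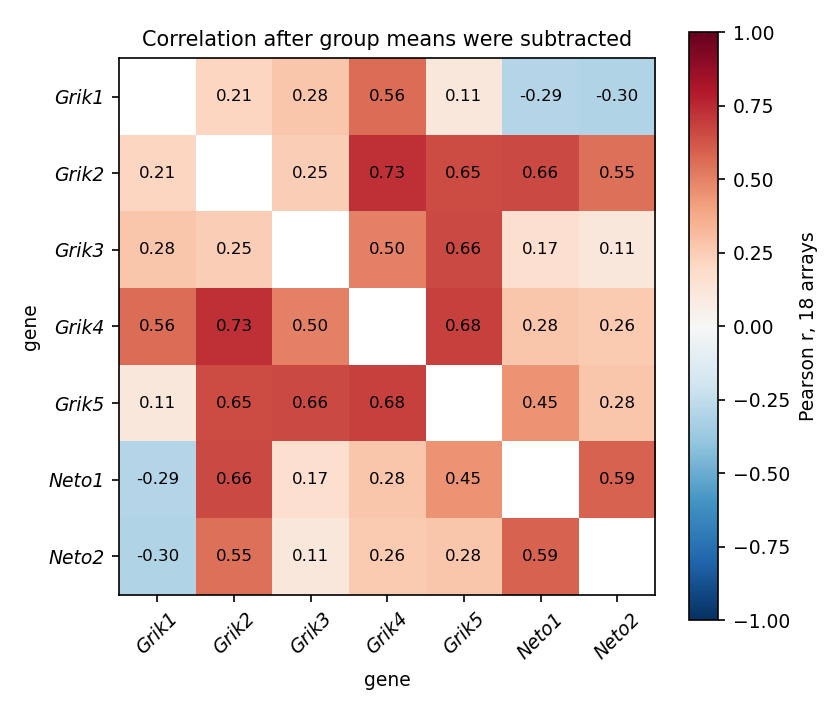
Pearson r between each pair of the 7 genes (both axes) over 18 arrays after group means were subtracted, with the value printed in each square and red for positive, blue for negative. Grik2 with Grik4 is the deepest red square (0.73), and the blue squares are those of Grik1 with Neto1 and Neto2.

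Among 11104 single-gene targets with a mean log2 signal of at least 8, each gene was matched by the same measure to the 3 genes most like it. For Grik1 these were Slc49a4 (r = 0.90), Nynrin (0.88) and Unc5d, a netrin receptor gene (0.88). The Grik1 values include pups removed replicate 4, at 8.81 against a group mean of 8.43, and none without it is given here. Grik2 varied most like Nos1ap, an adaptor of neuronal nitric oxide synthase (0.86), Cacng2, the AMPA receptor auxiliary subunit stargazin (0.84), and Kcnip4, a potassium channel interacting protein (0.82). Grik3 was nearest to Gramd1a (0.81), Zfp319 (0.81) and Scarna13 (0.81), and Grik4 to Cpsf7 (0.90), Clip3 (0.89) and Chst12 (0.88). The profile of Grik5 was closest to that of the acid-sensing channel gene Asic1 (0.92), then Celf5 (0.90) and Wiz (0.89). Neto1 had Unc13c, a vesicle priming gene (0.86), Adamts3 (0.86) and the latrophilin gene Adgrl2 (0.86), and Neto2 had the adhesion gene Alcam (0.75), Fars2 (0.71) and Entpd3 (0.71). The values of Neto2 were the lowest of the 7 sets. All of them are the top of a very long ranking over 18 arrays, and they are given as an order of likeness, not as a test.

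Genes of proteins that edit, traffic or anchor kainate receptors were not called. Of 24 such partner genes 21 were measured, and in maternal against virgin LS 0 passed the limma test (2 at unadjusted p under 0.05), with a median difference of 0.00. Over all targets 1.65% were called and 10.4% had an unadjusted limma p under 0.05. An absence of calls among 21 genes is thus no result about these genes. Adarb1, the gene of the RNA editing enzyme that recodes GluK1 and GluK2 transcripts, differed by 0.04 (SE 0.04). The scaffold genes Grip1 (0.01), Pick1 (-0.04), Dlg1 (-0.07), Dlg3 (0.01), Dlg4 (-0.02), Cask (0.07) and Sdcbp (-0.01) had unadjusted limma p of 0.0856 (Cask) or more. C1ql2 and C1ql3, genes of secreted proteins that gather kainate receptors at mossy fibre synapses in mouse hippocampus, differed by 0.05 and 0.06. The list ran from Ctnnb1 at -0.11 (limma adjusted p = 0.265) to Klhl24 at 0.09 (limma adjusted p = 0.442). Against pups removed LS the maternal differences ran from Pick1 at -0.07 to C1ql3 at 0.10, with 0 called and 0 at unadjusted p under 0.05. Over all targets the shares were 0.0309% and 8.96%. Between pups removed and virgin LS 0 were called as well, 0 at unadjusted p under 0.05, and the list spanned -0.06 (Ctnnb1) to 0.07 (C1ql2). There the shares over all targets were 0.208% and 8.13%.

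The other ionotropic glutamate receptors gave no call in any comparison either. Over all targets 1.65% were called between maternal and virgin, 0.0309% between maternal and pups removed and 0.208% between pups removed and virgin LS. The 4 AMPA receptor genes, which carry fast excitation, had a median difference of 0.06 between maternal and virgin LS, and all 4 differences were positive, at 0.04 for Gria1, 0.08 for Gria2, 0.03 for Gria3 and 0.11 for Gria4. Only Gria4 had an unadjusted p under 0.05 (limma adjusted p = 0.315), and its difference between pups removed and virgin LS was 0.09 (limma adjusted p = 0.579). The maternal difference from pups removed had a median of 0.03. Of 7 NMDA receptor genes 6 were measured, with a median difference of 0.01 between maternal and virgin LS and a range from -0.09 (Grin2a) to 0.10 (Grin2d). The delta receptor gene Grid1 was at -0.06 in the same comparison (limma adjusted p = 0.614). In glutamate release and uptake, 8 of 9 genes were measured and 0 were called. Between maternal and virgin LS 1 of these had an unadjusted limma p under 0.05, as 10.4% of all targets did.

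Lists of cell markers were read beside Grik1. No LS neuron marker and no GABA neuron gene was called in any comparison. The mean of the 12 LS neuron markers was between 9.46 and 9.64 over all arrays and that of the 3 measured GABA neuron genes between 11.53 and 11.69. Between maternal and virgin LS 2 and 0 of them had an unadjusted limma p under 0.05, where 10.4% of all targets did and 1.65% were called. Of 8 GABA interneuron markers 0 were called in any comparison, and between maternal and virgin LS 7 of the 8 differences were negative with a median of -0.10. Npy (-0.27) and Sst (-0.12) were the 2 at unadjusted p under 0.05 (limma adjusted p = 0.296 and 0.400). The mean of this list had r = 0.27 to Grik1 within groups, but -0.16 without pups removed replicate 4. Taken singly, the groups of 6 arrays had r = 0.67 (pups removed), -0.004 (maternal) and -0.88 (virgin). Markers of medium spiny neurons, which belong to the adjoining striatum, were lower in maternal LS. Of 20 measured genes 6 fell relative to virgin, where 0.813% of all targets were called lower, and none rose. All 20 differences were negative, with a median of -0.38 against 0.01 over all targets. The smallest p belonged to Bcl11b (-0.31, limma adjusted p = 0.128), Pde1b (-0.45, limma adjusted p = 0.190), Rxrg (-0.49, limma adjusted p = 0.191) and Rarb (-0.60, limma adjusted p = 0.212). Against pups removed LS all 20 were negative again with a median of -0.29, and 0 were called. At unadjusted p under 0.05 there were 13, where 8.96% of all targets passed in either direction. Without pups removed replicate 4, 13 of the 20 fell in that comparison. The number called over all targets was larger in that fit too, as listed in the closing section. Between maternal and virgin LS the number of the 20 called lower was 3 with the replicate number as a block and 0 by an exact permutation test over all targets. It was 0 without virgin replicate 2 or without maternal replicate 4 or 5, 1 without virgin replicate 3, 4 or 5 or maternal replicate 6, 2 without maternal replicate 2, 11 without maternal replicate 1, 14 without virgin replicate 6 and 15 without pups removed replicate 4. All 20 differences of these striatal medium spiny neuron markers were negative under each of these settings. The replicate block, the permutation test and leaving out a pups removed array cannot change these differences. Over all targets the number called also changed with the setting and with the array left out, as listed in the closing section.

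The mean log2 signal of the 20 striatal genes was 10.18 to 10.39 in virgin, 9.52 to 10.06 in maternal and 9.72 to 10.52 in pups removed LS. Virgin and maternal arrays did not overlap. After group means were subtracted, Grik1 and the striatal mean had r = -0.76 over 18 arrays and -0.61 over the 17 without pups removed replicate 4, given as a description of values that share each array's RNA. By group, r was -0.76 in maternal, -0.82 in pups removed and 0.43 in virgin LS (6 arrays each), so the direction in virgin mice, where Grik1 varied little, was the opposite. Of 11 measured markers of neuroblasts and stem cells 4 also fell in maternal relative to virgin LS, where 0.813% of all targets were called lower. They were Egfr at -0.22, Nr2e1 at -0.22, Nes at -0.21 and Top2a at -0.34. The other 7 were not called, and 10 of the 11 differences were negative, with Dcx at 0.05 the positive one. The mean of these markers had r = -0.76 to Grik1 within groups and -0.51 without pups removed replicate 4. By group, r was -0.95 in maternal, -0.87 in pups removed and 0.21 in virgin LS. The number called was 3 with the replicate block, 0 by exact permutation, 2 without virgin replicate 2 or maternal replicate 4 and 0 without maternal replicate 5. It was 3 without virgin replicate 3, 4 or 5 or maternal replicate 2 or 6, and 5 without pups removed replicate 4. Against pups removed LS 0 were called, but 1 without maternal replicate 1 and 4 without pups removed replicate 4. Over all targets the number called also changed with the array left out, as listed in the closing section. The mean of the neuroblast and stem cell markers was 8.81 to 8.96 in virgin, 8.63 to 8.80 in maternal and 8.66 to 8.90 in pups removed LS. The mean of 7 medial septal markers had r = 0.66 to Grik1 within groups, but 0.23 without pups removed replicate 4. Taken singly, the groups had r = 0.92 (maternal), 0.69 (pups removed) and -0.81 (virgin). The medial septal mean ranged from 7.95 to 8.11 in virgin, 7.94 to 8.16 in maternal and 7.86 to 8.30 in pups removed LS, the last value in replicate 4. The part of these cell types in the Grik1 result was not tested.

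**Figure D5:**
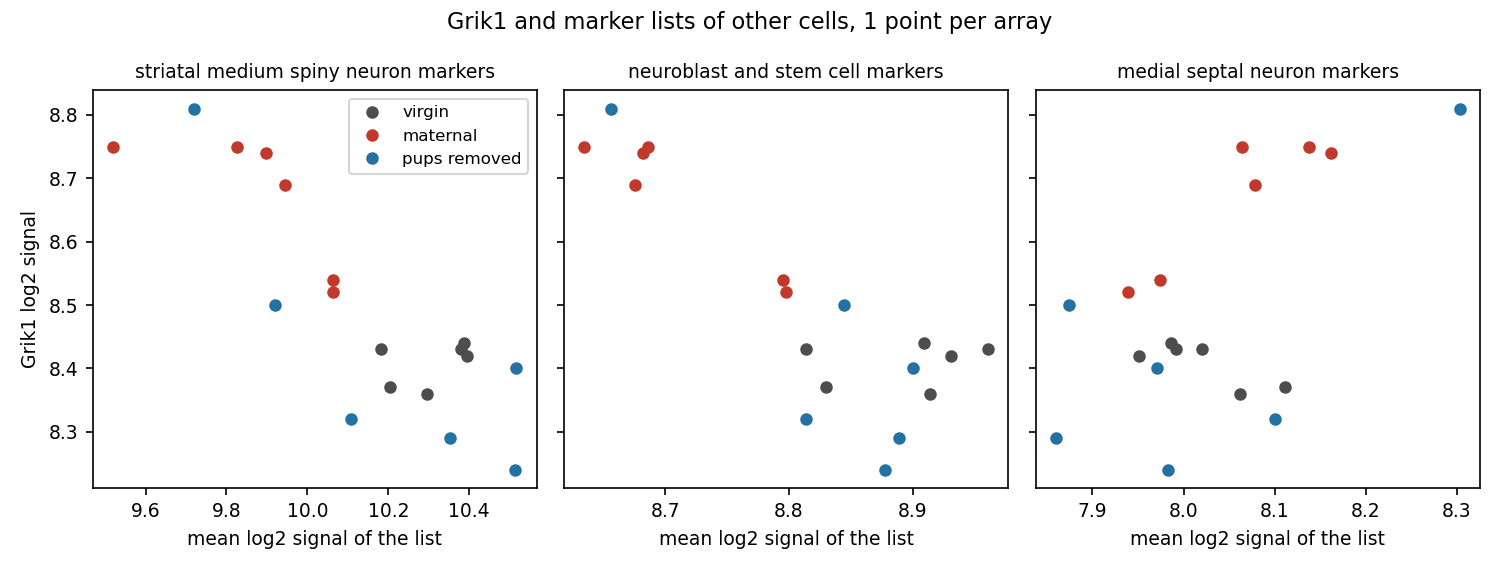
Grik1 log2 signal (y axis) against the mean log2 signal of 3 marker lists (x axis), with 1 point per array and colours for the groups. Among maternal and pups removed points of the striatal and the neuroblast and stem cell panels Grik1 is higher where the list is lower, and the virgin points do not show this (r = 0.43 and 0.21). In these panels the list mean of pups removed replicate 4 is within the maternal range. Its Grik1 signal (8.81) is above every maternal array, and so is its medial septal mean (8.30).

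Choroid plexus and ependymal markers differed widely between arrays of a single group. The choroid plexus mean of 6 genes ran from 7.87 to 10.27 in virgin, 7.82 to 9.81 in maternal and 7.67 to 10.21 in pups removed LS, and its r with Grik1 was -0.49 within groups. All 6 differences of this list were negative in maternal LS, with a median of -0.63 against virgin and -0.56 against pups removed LS. The 6 ependymal differences were negative too, with medians of -0.29 and -0.27 and r = -0.52 to Grik1. Without pups removed replicate 4 these r were -0.24 and -0.19. None of the 6 choroid plexus or 6 ependymal genes was called between maternal and virgin LS (1 and 2 at unadjusted p under 0.05). Of all targets 1.65% were called there and 10.4% had an unadjusted limma p under 0.05. Among microglia markers P2ry12 (-0.18) and Aif1 (-0.15) fell in maternal relative to virgin LS, 2 of 9 measured genes, where 0.813% of all targets were called lower. Of the 9 differences 5 were positive, with a median of 0.01, among them C1qc (0.18) and Tmem119 (0.08) at unadjusted p under 0.05 (limma adjusted p = 0.296 and 0.465). With the replicate block 1 microglia marker and 1 endothelial marker were called, and 0 of either by exact permutation. Among endothelial markers Flt1 (0.15) rose, 1 of 8 measured genes, where 0.832% of all targets were called higher. Without maternal replicate 5 neither list had a call, 1 microglia marker was called without virgin replicate 2 or maternal replicate 2 or 4, and Flt1 was the call lost without virgin replicate 2, 3 or 4 or maternal replicate 4 or 6. Within groups the means of these 2 lists had r = -0.24 and 0.10 with Grik1, and -0.55 and -0.22 without pups removed replicate 4.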

How the data were processed

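RNA of microdissected LS from 18 mice was hybridised to Affymetrix Mouse Gene 1.0 ST arrays, 1 per mouse. The values deposited by the authors are log2 signals per probeset with 2 decimals, made with Affymetrix Power Tools 1.12.0 by PLIER with a background correction by GC bin. The study places normalization in this PLIER step and names no separate step between arrays. Values were used as deposited. Platform annotation names 1 gene for 21789 probesets, several for 1621 and none for 12147. The array build is not named, so no coordinates are printed. All 18 arrays entered 1 model of the 3 group means in limma 3.58.1 (R 4.3.3). Variances were moderated by empirical Bayes, and p was adjusted (Benjamini-Hochberg) across the 35557 probesets. Called, rose and fell mean an adjusted p under 0.25. The fit was tested on simulated data. Single genes also had an exact two-sided permutation test.

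The 7 genes and all lists were chosen with earlier results of these data known. Named are the 7 genes, called list genes (at most 4 per list and comparison, by p) and the 3 genes most like each member. Partner and other receptor genes, marker genes of the tissue check and the ends of a list were named outside that rule. Listed genes without a probeset of their own, 19 in all, were not used. The number of arrays limits the precision. Alternatives were a replicate block, quantile normalization, median centring, a dim filter, single-gene probesets, 12 arrays only, a variance trend, array weights, permutation, a stricter threshold and leaving out each array. Counts of list genes under other settings and correlations by group were added after seeing the data.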

Additional observations from a re-analysis of the deposited data

How the results depend on the processing

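Over 28 alternatives for each gene and comparison, the other 6 genes were never called. Grik1 between maternal and virgin LS kept its call in 14 and its direction in all 28. Settings that alter only the test or leave out 1 array could not reverse the direction of Grik1. Its call was lost with the replicate block (adjusted p = 0.265), with an exact permutation test over all probesets (0.259), at an adjusted p under 0.05 and in 11 fits without 1 array, so the members called became 0 under these 3 settings and ranged from 0 to 1 without single arrays. Between maternal and pups removed LS Grik1 was called with array weights (0.26, adjusted p = 0.182), which made 1 member, and 0 to 1 members were called without single arrays. The planned mean over all probesets of a gene gave no other value, since each gene has 1. Arrays measure no depth, and a difference of small size in a gene of wide spread, such as Neto1 or Neto2, was limited by 6 arrays per group.

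The count of probesets depended more on the settings. For maternal versus virgin it was 0 at an adjusted p under 0.05, 356 with the replicate block, 1131 after the dim filter, 0 by exact permutation and 10 to 1639 without single arrays (76, 227, 334 and 1639 without virgin replicates 2, 3, 4 and 6, and 946, 243, 143, 10 and 163 without maternal replicates 1, 2, 4, 5 and 6). For maternal versus pups removed it was 5 at an adjusted p under 0.05, 42 with quantile normalization, 7 with median centring, 178 after the dim filter, 309 with single-gene probesets only, 70 with a variance trend, 783 with array weights, 0 by permutation and 5 to 719 without single arrays (19 and 30 without virgin replicates 4 and 5, 204, 6 and 5 without maternal replicates 1, 3 and 4, and 719 without pups removed replicate 4). For pups removed versus virgin it was 7 at an adjusted p under 0.05, 7 with single-gene probesets only, 33 with only 12 arrays, 42 with array weights, 0 by permutation and 18 to 266 without single arrays (46, 18, 113, 266 and 249 without virgin replicates 1, 2, 3, 4 and 6, and 49 without pups removed replicate 4). The cause was not tested.

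Some uncalled differences near 0 changed sign. Grik3 between maternal and virgin LS was at 0.0070 with quantile normalization and -0.024 to 0.00033 without single arrays, and between maternal and pups removed LS at -0.018 to 0.016. For pups removed versus virgin, quantile normalization, median centring and array weights gave Grik1 -0.0099, -0.012 and -0.0075 and Grik4 -0.0098, -0.017 and -0.0060, and the last 2 gave Grik5 -0.017 and -0.014. Without single arrays these ran from -0.058 to 0.056 (Grik1), -0.035 to 0.025 (Grik2), -0.029 to 0.006 (Grik3), -0.018 to 0.035 (Grik4), -0.02 to 0.046 (Grik5) and -0.053 to 0.032 (Neto2).

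Same-numbered arrays did not deviate together (r of their deviations -0.248 to 0.095 for maternal versus virgin, 0 of 6 pairs over 0.1 in each comparison), and no array correlated best with its own number, so the replicate numbers were not read as pairs. The methods say that RNA was prepared in triplets of 1 mouse from each group, but the labels do not tie the numbers to these triplets, and whether the block of numbers is that of the triplets is unknown. With the number as a block, which by design leaves the difference of 0.26 unchanged, Grik1 between maternal and virgin LS lost its call (adjusted p of 0.265).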
